A study of Saccharomyces cerevisiae with 4 samples.

Results

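Transcripts of the yeast zinc-starvation response, of the plasma membrane proton pump and of several stress genes were lower in pair B than in pair A of the cultures at both ploidies. The transcript for the glucose transporter Hxt2 was higher, as were those of 23 of 70 genes for mitochondrial ribosomal proteins and 15 of 90 for ribosome assembly, of which a second tool, DESeq2, called 1 each. The comparison sets haploid A and tetraploid A (pair A) against haploid B and tetraploid B (pair B), which together are all 4 of the 4 RNA sequencing libraries of the study. It takes in the 5680 of 6348 listed open reading frames (ORFs) that reached 15 reads in 1 or both libraries of pair A and likewise of pair B. The groups were formed from the sample labels and not from any measured value.

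The study asked how ploidy alters the transcriptome of budding yeast, and its libraries came as 2 haploid and tetraploid pairs, so each ploidy was grown and sequenced 2 times. All 4 cultures were Saccharomyces cerevisiae of the Σ1278b background, a laboratory background that can form filaments, with the alleles ura3-52, leu2::hisG and his3::hisG. The haploids were MATa, and the tetraploids were isogenic and carried MATa at every copy of the mating-type locus. They were grown to mid-log phase at 30 °C in synthetic complete medium with 2% glucose, with no other treatment. Each ploidy was 1 strain, so the pairs compare cultures and not independently made strains. The sources used here do not say what set pair A apart from pair B, so the culture, the medium lot, the RNA preparation and the sequencing run cannot be told apart. The p-values set the pair difference against its disagreement between the ploidies in these samples. They do not measure the spread between replicate cultures, because each pair held 1 library of each ploidy.

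Poly(A) RNA was sequenced for 36 cycles, and the deposited files hold whole-number read counts per ORF. The libraries held 3612527 to 4133193 counts, of which 37.0% to 43.7% lay on 11 ORFs inside the ribosomal DNA repeats. Summed reads of 7 MATa marker genes were 4170 and 3168 in haploids A and B and 1239 and 1210 in tetraploids A and B. Those of 4 MATalpha markers were 79 to 105 per library, and those of 14 meiosis and sporulation markers 161 to 230. Neither the MATalpha nor the sporulation total separated the pairs, since each had its lowest and its highest library in pair B. Levels are given in CPM, the read count in millionths of the library total after scaling by its TMM factor, which aligns the bulk of the genes between libraries, and ratios are pair B over pair A on the log2 scale with their standard error (SE). A level is a share of its own library, and fewer cells with a transcript and less of it per cell cannot be told apart.

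Genes were compared between the pairs with edgeR's quasi-likelihood test, with ploidy as a block, and called at a Benjamini-Hochberg adjusted p under 0.05. By this test 179 genes were higher in pair B, 3.15% of those tested, and 359 were lower, 6.32%. Counts of called genes in the lists below are to be read beside these shares. The lists were drawn up with earlier results of these data known, so list counts and list medians are a description. The median log2 ratio was 0.68 among the higher genes and -0.67 among the lower genes, and 0.01 over all genes. The higher genes reached no further than 1.79, whereas 16 of the lower genes had a ratio of -2 or beyond on the log2 scale, down to -4.88. All 179 higher genes and 356 of the 359 lower genes differed in the same direction at both ploidies, and VEL1, ARO9 and FLO11 were the exceptions. The test favours genes with one direction, because its residual is the disagreement between the ploidies, so these counts are no separate evidence. When total counts replaced the TMM factors as the scale, the median of all genes moved to 0.22 and the calls to 542 higher and 130 lower, so the balance of the directions depended on the scaling. All 179 higher and 130 of the 359 lower genes were among those calls. List medians given below with total counts are to be read beside this 0.22.

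The 2 haploid libraries were further apart than the 2 tetraploid libraries. The log2 ratio of haploid B to haploid A had a standard deviation of 0.51 over the 5680 genes, against 0.39 for the tetraploids. Haploids A and B were also shallower outside ribosomal DNA, at 2104348 and 2050399 counts against 2436106 and 2544336 in tetraploids A and B. The part of counting noise in the wider spread was not tested. Among called genes, 109 of the 179 higher and 272 of the 359 lower ones had the larger difference in the haploids. Both within-ploidy ratios reached 2-fold in the same direction for 36 genes. Of these, 32 were lower in pair B, 0.563% of the genes tested, and 4 were higher, 0.0704%. The 4 higher genes were MTD1, NCE103, POP7 and YOR062C. A difference of 4-fold at both ploidies was found for 11 genes, all lower in pair B.

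**Figure D1:**
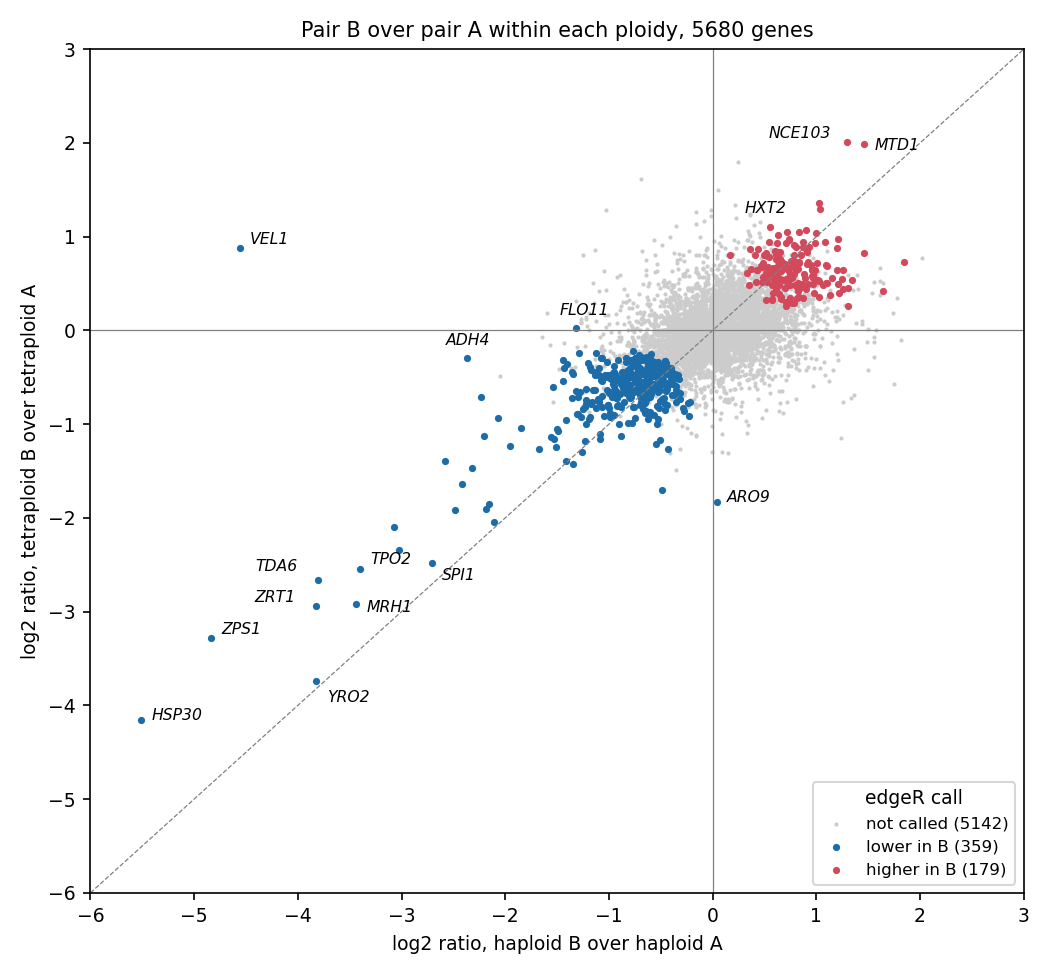
Each point is 1 of 5680 genes, with the log2 ratio of haploid B to haploid A on the x axis and of tetraploid B to tetraploid A on the y axis, coloured by the edgeR call (179 higher, 359 lower), and the dashed line marks equal ratios. The genes with the most negative ratios lie near or above the dashed line, from TPO2 to HSP30, and VEL1 (-4.56 and 0.88) and ARO9 (0.04 and -1.83) lie apart from the rest.

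Zinc homeostasis in yeast is run by Zap1, a transcription factor that is active when cellular zinc is low and then raises transcripts for zinc uptake, for release of zinc from the vacuole and for proteins that help cells do with less zinc. Its best known targets include the plasma membrane zinc transporter genes ZRT1 and ZRT2, the vacuolar efflux transporter gene ZRT3 and ZAP1 itself. The list of zinc genes used here held 22 genes. All 22 were tested, 16 were called lower in pair B, and all 22 had a negative ratio, with a median of -0.69 beside 0.01 for all genes. Among the 16 called members 14 had the larger difference in the haploids, beside 272 of all 359 lower genes. DESeq2 called 9 of the 22 lower, and so did edgeR with total counts. In 17 of the 22, both pair B libraries were below both pair A libraries, which was so for 19.4% of all genes. The summed level of the list was 7430 CPM in haploid A, 1899 in haploid B, 3541 in tetraploid A and 1592 in tetraploid B. Pair A was therefore the high pair at both ploidies, and the gap was wider in the haploids, where the median ratio was -0.84 against -0.41 in the tetraploids.

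The high-affinity zinc uptake gene ZRT1 stood at 2499 CPM in haploid A and 1374 in tetraploid A, and at 176 and 179 in haploid and tetraploid B. The levels within a pair differed far less than those between pairs, and the log2 ratio was -3.38 (SE 0.18, adjusted p = 7.57e-09), a 10.4-fold difference. ZPS1, which encodes a cell surface protein related to metalloproteinases, stood at 1781 CPM in haploid A, 61.9 in haploid B, 187 in tetraploid A and 19.2 in tetraploid B. Its ratio was -4.21 (SE 0.26, adjusted p = 3.37e-08). ZPS1 was also lower in tetraploids than in haploids in the same fit, by 2.72 on the log2 scale, so both factors separated its libraries and haploid A stood far above the other libraries. For ZRT1 the ploidy ratio was -0.46 (adjusted p = 0.105).

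ZRT2, the low-affinity zinc transporter gene, differed less, at 251 CPM in haploid A, 197 in haploid B, 250 in tetraploid A and 147 in tetraploid B (ratio -0.56, SE 0.13, adjusted p = 0.0141). FET4, whose product carries zinc, iron and copper at low affinity, stood at 45.0 and 38.8 CPM in haploid and tetraploid A and at 15.9 and 18.4 in haploid and tetraploid B. Its ratio was -1.27 (SE 0.18, adjusted p = 0.00046), with no overlap of the pairs. Both vacuolar transporter genes were lower as well. ZRT3, for efflux, had a ratio of -1.10 (SE 0.14, adjusted p = 0.000128) and ZRC1, for storage, of -0.69 (SE 0.13, adjusted p = 0.00315). ZRG17, for a subunit of a zinc transporter of the endoplasmic reticulum, was not called, at -0.30 (SE 0.17, adjusted p = 0.283). ZAP1 itself stood at 38.6 and 25.6 CPM in haploid and tetraploid A and 16.5 and 15.3 in haploid and tetraploid B, a ratio of -0.98 (SE 0.19, adjusted p = 0.00496).

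The other members of the list encode enzymes and proteins with roles outside zinc transport. ADH4, for an alcohol dehydrogenase, stood at 259 CPM in haploid A, 50 in haploid B, 38.3 in tetraploid A and 31.4 in tetraploid B. Its call (-1.47, SE 0.30, adjusted p = 0.00665) rested on haploid A, since the ratio was -2.37 in the haploids and -0.29 in the tetraploids. VEL1 was more extreme in this, at 103 CPM in haploid A, 4.26 in haploid B, 1.65 in tetraploid A and 3.14 in tetraploid B, with only 7 reads in tetraploid A. Its ratio by the fit was -3.37 (SE 0.57, adjusted p = 0.00185), which combined -4.56 in the haploids with 0.88 in the tetraploids. ATG41, an autophagy gene, showed the reverse weighting, with -0.49 in the haploids and -1.70 in the tetraploids (-1.20 by the fit, adjusted p = 0.0114).

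Genes of phospholipid and glycolipid synthesis on the zinc list were called lower in part. MCD4, for an enzyme of the glycosylphosphatidylinositol anchor, had a ratio of -0.81 (adjusted p = 0.00373), DPP1, for a phosphatidate phosphatase of the vacuole membrane, of -0.71 (adjusted p = 0.00709), and PIS1, for phosphatidylinositol synthase, of -0.69 (adjusted p = 0.00216). The kinase genes EKI1 and CKI1, at the head of the ethanolamine and choline routes, were not called, at -0.02 and -0.06. TSA1, for the major cytosolic peroxiredoxin, had a ratio of -0.59 (adjusted p = 0.0125), MNT2, for a mannosyltransferase, -0.56 (adjusted p = 0.037), and IZH2, for a membrane protein tied to zinc metabolism, -0.55 (adjusted p = 0.0299). IZH1, URA10 and RTC4 were not called, at -0.29, -0.38 and -0.54. In the R64 reference order VEL1, MNT2, ADH4 and ZRT1 are 4 consecutive genes on chromosome 7. Reads on both strands were counted, so reads of overlapping transcripts there cannot be assigned to 1 of them.

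**Figure D2:**
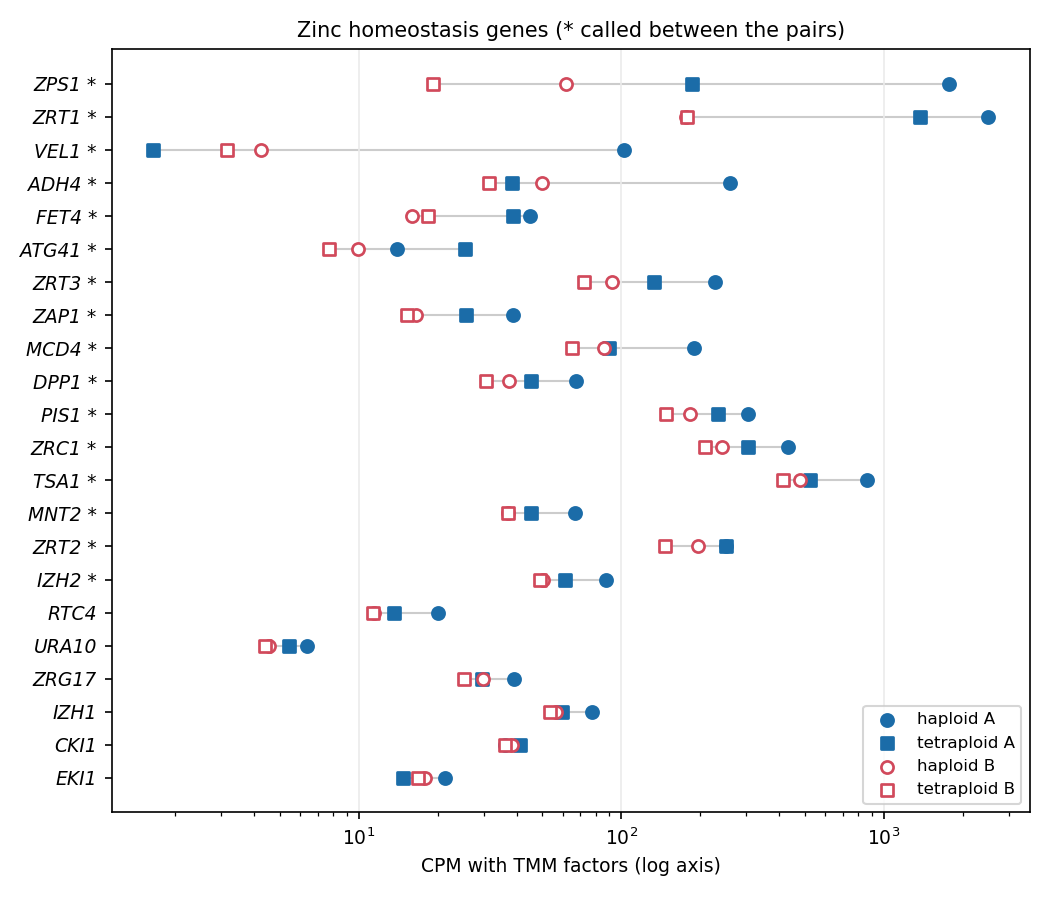
Levels of the 22 zinc genes in CPM on a log axis, 1 row per gene sorted by ratio, with filled symbols for pair A, open symbols for pair B, circles for haploids and squares for tetraploids; an asterisk marks the 16 called genes. The open symbols of ZRT1 coincide at 176 and 179 CPM while its filled symbols lie at 1374 and 2499, and for VEL1 and ADH4 haploid A stands alone.

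The plasma membrane ATPase Pma1 pumps protons out of the cell and sets the gradient that drives nutrient uptake, and Hsp30 is a stress-induced membrane protein that restrains it. The list of the ATPase and its partners held PMA1, PMA2, the proteolipid genes PMP1 and PMP2, and HSP30 with its relatives YRO2 and MRH1. All 7 of 7 genes were called lower in pair B, with a median ratio of -1.45, and DESeq2 called the same number. YRO2 was already known to differ between the cultures when the list was drawn up, so the share called describes these genes and tests nothing. HSP30, YRO2 and MRH1 had the largest differences of the 7. Every one of the 7 had the more negative ratio in the haploids, beside 272 of the 359 lower genes with the larger difference there. HSP30 had the most negative ratio of all 5680 genes. It stood at 484 CPM in haploid A and 163 in tetraploid A against 10.5 in haploid B and 9.0 in tetraploid B, a 29.5-fold difference (ratio -4.88, SE 0.23, adjusted p = 1.87e-09). The pair B libraries of HSP30 held 37 and 43 reads, so its low level was still well counted.

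YRO2 and MRH1 encode membrane proteins related to Hsp30. YRO2 stood at 203 and 77.2 CPM in haploid and tetraploid A and at 14.2 and 5.65 in haploid and tetraploid B (ratio -3.80, SE 0.17, adjusted p = 1.64e-09). Its difference was of the same size at both ploidies, -3.82 and -3.74. MRH1 stood at 242 and 117 CPM in the libraries of pair A and at 22.2 and 15.3 in those of pair B (ratio -3.20, SE 0.16, adjusted p = 4.22e-09). PMA1, the gene of the pump itself and one of the most abundant transcripts here, stood at 8303 and 5476 CPM in haploid and tetraploid A and 3856 and 3305 in haploid and tetraploid B (ratio -0.92, SE 0.14, adjusted p = 0.000742). The minor isoform gene PMA2 had a ratio of -1.04 (adjusted p = 0.000156), and the genes of the small ATPase proteolipids PMP1 and PMP2 had ratios of -1.02 and -1.45 (adjusted p = 0.00025 and 9.14e-05). PMA1 and PMA2 are similar in sequence, so their counts may not be independent.

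Yeast answers many stresses with a shared set of genes under the factors Msn2 and Msn4, among them genes for chaperones, catalase and cell wall proteins. Of 31 tested genes on the general stress list, 13 were called lower in pair B and 1 higher, and the median ratio was -0.49. DESeq2 called 9 of them lower. The list overlaps the previous one in HSP30, YRO2 and MRH1. SPI1, for a cell wall protein induced in starvation and by weak acids, stood at 73.4 CPM in haploid A, 11.1 in haploid B, 15.8 in tetraploid A and 2.72 in tetraploid B, where it had 13 reads. Its ratio was -2.66 (SE 0.22, adjusted p = 1.28e-06) and its ploidy ratio -2.17, so SPI1 differed by both factors. GAD1, for glutamate decarboxylase, stood at 51.1 and 25.4 CPM in pair A and 11.1 and 6.69 in pair B (haploid first; ratio -2.07, SE 0.20, adjusted p = 1.09e-05).

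HSP104, for the disaggregase that rescues aggregated proteins, stood at 482 and 230 CPM in haploid and tetraploid A and at 105 in both libraries of pair B (ratio -1.66, adjusted p = 5.32e-05). CTT1, for cytosolic catalase, HSP42, for a small heat shock protein, and YGP1, for a secreted glycoprotein, had ratios of -1.61, -1.39 and -1.39. The remaining called members were HOR7, DDR48, GLK1 and PNC1, between -0.67 and -0.49. TMA10, for a ribosome-associated protein, was the 1 general stress gene called higher. It rose from 12.4 and 15.5 CPM in haploid and tetraploid A to 34.4 and 27.6 in haploid and tetraploid B (ratio 1.11, SE 0.20, adjusted p = 0.00326). HSP12, often the most responsive gene of this set, was not called and went in opposite directions at low counts, with 26 and 41 reads in haploids A and B and 14 and 8 in tetraploids A and B.

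**Figure D3:**
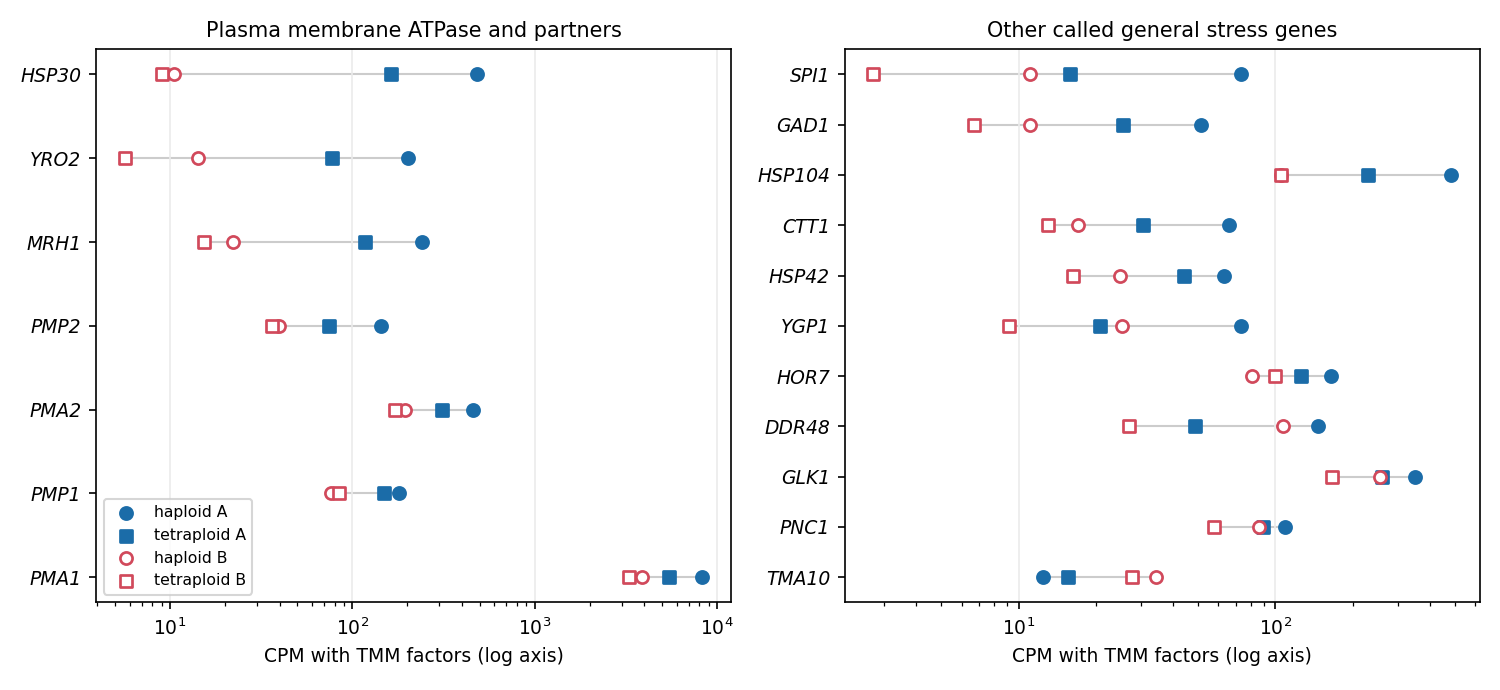
Levels in CPM on a log axis of the 7 genes of the plasma membrane ATPase, its proteolipids, Hsp30 and relatives of Hsp30 (left) and of the other 11 called general stress genes (right), with filled symbols for pair A, open symbols for pair B, circles for haploids and squares for tetraploids. The pairs do not overlap for the 7 genes on the left, whereas for YGP1, DDR48, GLK1 and PNC1 haploid B lies above or close to tetraploid A.

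Other stress lists gave fewer calls. Storage carbohydrates, trehalose and glycogen, build up as growth slows. Of 21 genes for them, 4 were called lower (median -0.36): TSL1 and TPS1, for subunits of the trehalose synthase complex, at -1.08 and -0.60, GSY1, for glycogen synthase, at -0.85, and GPH1, for glycogen phosphorylase, at -0.75. DESeq2 called 2 of the 21 lower, and edgeR with total counts called 1 (median -0.15). Among 27 chaperone genes, BTN2 was the 1 call, at -0.61, and the median was 0.03. The haploids had the more negative ratio for 22 of the 27, beside 2847 of all 5680 genes. With total counts 7 chaperone genes were higher and BTN2 was not called. Of 20 oxidative stress genes none was called by edgeR, limma-voom or DESeq2, and 1 was higher and 2 were lower at an unadjusted p under 0.05 in edgeR. With total counts 1 was called higher. The most abundant of them, TRR1 for thioredoxin reductase and AHP1 for a peroxiredoxin, had ratios of -0.01 (SE 0.12) and 0.06 (SE 0.12), and the list median was -0.11 (0.10 with total counts). Of 10 multidrug transporter genes 1 was called, PDR12, the exporter of weak organic acids, at -0.67 (SE 0.13, adjusted p = 0.00389).

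The largest differences outside these lists were also falls. TPO2 and TPO3, for polyamine exporters of the plasma membrane, stood at 615 and 635 CPM in haploid A and at 58.0 and 75.3 in haploid B. In tetraploids A and B the levels were 412 and 70.9 CPM for TPO2 and 347 and 81.0 for TPO3. The ratios were -2.95 (SE 0.17, adjusted p = 2.73e-08) and -2.58 (SE 0.18, adjusted p = 2.35e-07), and the sequences of TPO2 and TPO3 are close enough that their reads may be shared. TDA6, which lies next to TPO3 in the R64 order, had a ratio of -3.28 (SE 0.21, adjusted p = 7.88e-08), from 161 and 60.0 CPM in pair A to 11.4 and 9.41 in pair B. AQY2, for an aquaporin-like protein, had a ratio of -2.19 (adjusted p = 2.49e-06), and CIP1, for an inhibitor of cyclin-dependent kinase, of -2.08 (adjusted p = 2.5e-07), with the pairs apart at both ploidies.

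Glucose uptake genes went both ways. Yeast matches its hexose transporters to the sugar supply: Hxt1 and Hxt3 serve high glucose, Hxt2, Hxt4, Hxt6 and Hxt7 lower glucose, and Mig1 and Mig2 repress genes when glucose is plentiful. Of 18 tested genes for hexose transport and sensing, 3 were called higher and 4 lower (median -0.11, and 0.10 with total counts). HXT2 stood at 448 and 273 CPM in haploid and tetraploid A and at 818 and 524 in haploid and tetraploid B (ratio 0.90, SE 0.12, adjusted p = 0.000235). It was the most abundant of the 179 higher genes. HXT4 differed in the other direction, from 105 and 72.0 CPM in pair A to 52 and 41.2 in pair B (ratio -0.91, SE 0.14, adjusted p = 0.000725), so HXT2 and HXT4 moved apart in the same cultures.

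HXT3 had a ratio of -0.50 (adjusted p = 0.0237), and HXT6 and HXT7 of -0.56 (adjusted p = 0.00858). These last carry the same counts in every library, 1553, 1125, 1372 and 1098 reads, and so are 1 measurement. HXT1 was not called, at -0.32 (SE 0.12, adjusted p = 0.107). The repressor genes MIG1 and MIG2 were called higher, at 0.67 (SE 0.14, adjusted p = 0.00922) and 0.72 (SE 0.15, adjusted p = 0.00707), and MIG3 was not, at 0.42 (SE 0.23). MIG1 rose from 40.2 to 68.5 CPM between haploids A and B and from 32.9 to 48.7 between tetraploids A and B.

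Of 18 tested genes that glucose represses, ICL1, for isocitrate lyase of the glyoxylate cycle, was the 1 call. It stood at 12.8 and 9.41 CPM in haploid and tetraploid A and 31.8 and 11.3 in haploid and tetraploid B, so haploid B stood apart (ratio 0.85, SE 0.25, adjusted p = 0.0442). The median of that list was 0.24 in the haploids and -0.04 in the tetraploids. Of 24 genes of glycolysis and fermentation, 8 were called lower, and 23 had a negative ratio (median -0.35). With total counts 4 were called lower and 1 higher (median -0.14). TDH1, TDH2 and TDH3, for glyceraldehyde-3-phosphate dehydrogenase, had ratios of -0.75, -0.71 and -0.66, and PGK1, for phosphoglycerate kinase, of -0.74 (SE 0.14, adjusted p = 0.00336). PGK1 stood at 4764 CPM in haploid A, 2482 in haploid B, 2870 in tetraploid A and 1981 in tetraploid B. The TDH genes share much of their sequence and may share reads.

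Abundant genes as a class stood slightly lower in pair B, which touches the glycolytic list. In the fifth of the genes with the highest mean level the median ratio was -0.09, and 195 of the 359 lower calls but 17 of the 179 higher calls lay there. The glycolytic genes had a median mean level of 1384 CPM beside 28.6 CPM for all genes. With offsets that remove the trend of the ratio with level, an alternative chosen after seeing the data, 8 glycolytic genes were still called lower and 1 was higher, and the median was -0.17. ACT1, the actin gene, fell from 1133 to 689 CPM in the haploids and from 709 to 503 CPM in the tetraploids (ratio -0.61, SE 0.12, adjusted p = 0.00567). Its ploidy ratio in the same edgeR fit was -0.57 (adjusted p = 0.0103). The study scaled most of its PCR values to ACT1 and states that the share of ACT1 in total RNA was constant in its strains. The CPM here are shares of poly(A) libraries, so they do not test that statement. The most abundant of the lower ORFs was YLR154W-E of the ribosomal DNA, at -0.55. Of 11 ORFs in that repeat, 5 were called lower, and 4 of these had identical counts and are 1 measurement.

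Respiration gave 1 call in each direction. Of 45 genes of the respiratory chain and citric acid cycle, 1 was called higher, QCR6 of the cytochrome bc1 complex at 0.66 (SE 0.13, adjusted p = 0.00507), and 1 lower, SDH4 of succinate dehydrogenase at -0.62 (SE 0.15, adjusted p = 0.0154). The median was -0.20 in the haploids and 0.13 in the tetraploids. The haploids had the more negative ratio for 39 of the 45 genes, beside 2847 of all 5680 genes. The 2 ploidies thus gave list medians on opposite sides of 0, and that difference was not tested.

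Mitochondrial ribosomes translate the few proteins that mitochondrial DNA encodes, and their proteins come from nuclear genes. Of 70 such genes, 23 were called higher in pair B by edgeR and 24 by limma-voom, but 1 by DESeq2. With total counts edgeR called 32. None was lower by any of the 3 tools, nor at an unadjusted p under 0.05 in edgeR, where 41 were higher. Positive ratios were found for 67 of the 70, beside 2926 of all 5680 genes. The list median was 0.47 (0.44 in the haploids and 0.50 in the tetraploids). MRP20 stood at 9.25 and 11.1 CPM in haploid and tetraploid A and at 21.6 and 22.0 in haploid and tetraploid B (ratio 1.09, SE 0.21, adjusted p = 0.00488). MRPS17 stood at 18.2 and 21.4 CPM in pair A and 30.1 and 44.4 in pair B (ratio 0.91, SE 0.18, adjusted p = 0.00459). MRPL17 and MRPL44 both had a ratio of 0.89 (adjusted p = 0.00706 and 0.0271). The median mean level of the list, 29.4 CPM, was close to that of all genes. Short genes as a class had slightly higher ratios, with a median of 0.10 in the fifth with the shortest coding lengths and -0.05 in the longest, and the part of length in this list was not tested.

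Some genes for ribosome assembly in the nucleolus were also called higher. Of 90, 15 were called higher by edgeR and by limma-voom and 1 by DESeq2, and 78 had a positive ratio (median 0.23). With total counts 39 were called higher, and with offsets for level 24. None was called lower by these tools, and 2 were lower at an unadjusted p under 0.05 in edgeR. The largest ratios were 0.81 for RRP14 and NOP16 and 0.68 for RRP15 and RRP7, which act in the maturation of ribosomal RNA and of the ribosomal subunits. NOP16 stood at 26.5 and 40.5 CPM in haploid and tetraploid A and at 51.1 and 65.9 in haploid and tetraploid B (SE 0.15, adjusted p = 0.00315). Of 138 genes on the list of cytosolic ribosomal proteins, 6 were called lower, 4.35% beside 6.32% of all genes, and the median was 0.01. Among the 6 were the paralogs RPL4A and RPL4B at -0.63 and -0.64, RPP2A at -0.57 and RPS27B at -0.44. None was called higher by edgeR, limma-voom or DESeq2, and 5 were at an unadjusted p under 0.05 in edgeR. With total counts 10 were higher and 2 lower. The list was drawn by name and also holds RPP1, a subunit gene of ribonuclease P. With offsets for level, 15 cytosolic ribosomal protein genes were higher and 3 lower (median 0.16).

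Among the 12 named genes with the largest rises, those outside the ribosome lists differed in function. MTD1, for a folate-dependent dehydrogenase of one-carbon metabolism, stood at 7.34 and 8.0 CPM in haploid and tetraploid A (23 and 34 reads) and at 20.5 and 32.2 in haploid and tetraploid B (72 and 154 reads). It had the highest ratio, 1.79 (SE 0.23, adjusted p = 0.000156). NCE103, for carbonic anhydrase, stood at 38.0 and 32.9 CPM in pair A and at 93.8 and 133 in pair B (ratio 1.68, SE 0.16, adjusted p = 1.09e-05). Unlike most called genes, MTD1 and NCE103 had the larger ratio in the tetraploids. LSO2, for a protein that binds ribosomes, had 23 reads in haploid A and 74 to 138 elsewhere (ratio 1.14, adjusted p = 0.00707).

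Several further members of that group were counted thinly. POP7, for a subunit of ribonuclease P and MRP, had 12, 28, 16 and 47 reads in haploid A, haploid B, tetraploid A and tetraploid B (ratio 1.24, SE 0.32, adjusted p = 0.0257). CLB5, for an S-phase cyclin, had 25, 60, 33 and 72 reads in the same order (1.02, SE 0.24, adjusted p = 0.0144), and RAD18, for a ubiquitin ligase of DNA damage tolerance, 18, 39, 30 and 63 reads (0.92, SE 0.27, adjusted p = 0.0417). AIM32, MTF2, which acts on mitochondrial transcripts, and FYV4 had ratios of 1.01, 0.99 and 0.96. In each of the named rises the libraries of pair B were above those of pair A of the same ploidy, which the rule for choosing the largest rises required.

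**Figure D4:**
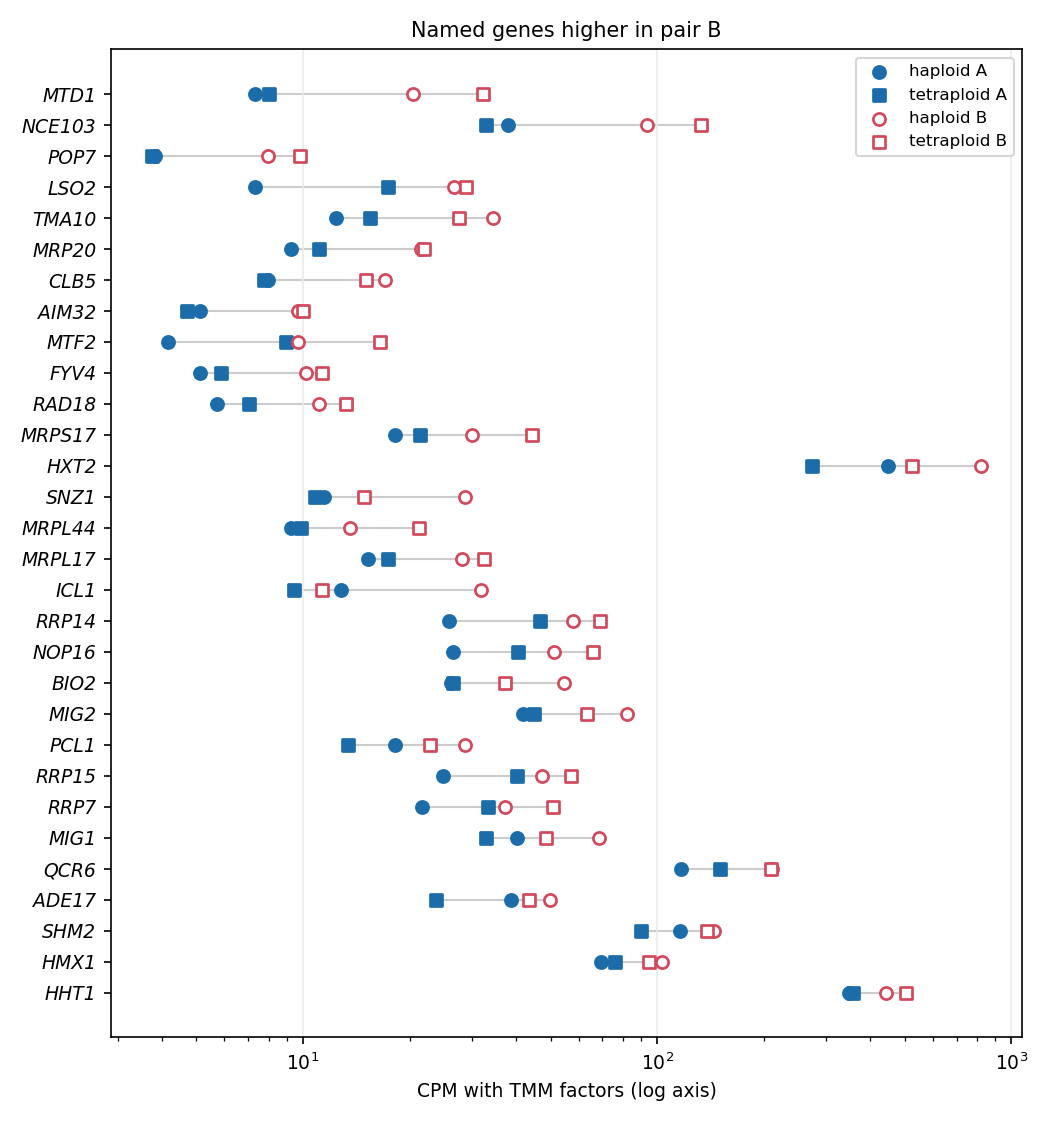
Levels in CPM on a log axis of the named genes called higher in pair B, sorted by ratio from MTD1 (1.79) to HHT1 (0.42), with filled symbols for pair A, open symbols for pair B, circles for haploids and squares for tetraploids. The open symbols lie to the right of the filled ones in most rows, and for ICL1 tetraploid B (11.3 CPM) lies below haploid A (12.8 CPM).

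Vitamin and nucleotide genes gave few calls. Of 24 purine and one-carbon genes, 3 were called higher, MTD1, ADE17 of purine synthesis at 0.62 and SHM2, for serine hydroxymethyltransferase, at 0.47. APT1, for adenine salvage, was called lower at -0.63, and the list median was 0.17. Of 20 genes for thiamine, pyridoxine and biotin, SNZ1 and BIO2 were called higher, at 0.89 and 0.76, and the thiamine transporter gene THI7 lower, at -1.19 (SE 0.15, adjusted p = 0.000201). THI7 stood at 89.0 and 49.4 CPM in haploid and tetraploid A and at 33.5 and 25.3 in haploid and tetraploid B. The genes of thiamine synthesis on that list were not called, and THI5 and THI12 have identical counts and cannot be separated.

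Iron, copper and phosphate genes gave few calls. Of 22 iron genes, SMF3 and FRE1, for a vacuolar iron transporter and a surface reductase, were called lower at -0.60 and -0.45, and HMX1, for haem oxygenase, higher at 0.44. The median was -0.17, or 0.04 with total counts. Of 10 copper genes, the metallothionein gene CUP1-2 was called lower at -0.40 (adjusted p = 0.0473), and the median was -0.18 (0.02 with total counts). Of 20 phosphate genes, PHM8 was the 1 call, from 32.9 and 16.7 CPM in pair A to 5.40 and 6.28 in pair B (ratio -1.98, SE 0.27, adjusted p = 0.000343), and the median was -0.18 (0.03 with total counts). PHM8 encodes a phosphatase that acts on lysophosphatidic acid and nucleotides. PHO84, the phosphate transporter gene, and PHO5, the secreted acid phosphatase gene, were not called, at -0.06 and -0.33.

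Shares of amino acid genes called lower were close to the 6.32% of all genes, at 8.33% for arginine, 9.09% for the other amino acids and 9.68% for sulfur and methionine. Of 12 arginine genes, CPA1, for carbamoyl phosphate synthase, was the 1 call at -0.42, and the list median was 0.20 in the haploids and -0.35 in the tetraploids. Of 55 other amino acid genes 5 were called, with HOM6 at -0.66, TRP1 at -0.62 and LYS4 at -0.46 and a median of -0.08 (0.13 with total counts). ARO9, for an aromatic aminotransferase, had 13 and 15 reads in the haploids and 68 and 21 in tetraploids A and B. Its call (-1.25, SE 0.37, adjusted p = 0.0473) therefore came from tetraploid A. Of 31 sulfur and methionine genes, SAM3, MET17 and MET13 were called, at -0.55, -0.45 and -0.40, with a median of -0.13 (0.08 with total counts).

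Among nitrogen sources, 3 of 15 amino acid permease genes and 2 of 20 genes of nitrogen catabolism were called lower, with medians of -0.31 and -0.26. BAP2, for a branched-chain amino acid permease, stood at 882 and 816 CPM in haploid and tetraploid A and at 425 and 433 in haploid and tetraploid B (ratio -0.98, SE 0.12, adjusted p = 0.000121). The related BAP3 had a ratio of -0.85 (adjusted p = 0.000451) and SSY1, the gene of the amino acid sensor upstream of both, of -0.75 (adjusted p = 0.0247). The 2 ploidies of a pair were close to each other for BAP2 and far from the other pair. MEP3, for an ammonium permease, and OPT2, for an oligopeptide transporter, had ratios of -0.72 and -0.66.

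Lipid and cell surface genes made up a further share of the lower calls. Of 22 genes for fatty acids and phospholipids, 9 were called lower (median -0.33), led by the elongase genes ELO1 and ELO3, both at -0.76, ELO2 at -0.67 and CHO2, for phosphatidylethanolamine methylation, at -0.65. The elongase ratios were larger in the haploids, -1.02, -1.04 and -0.84 for ELO1, ELO3 and ELO2, than in the tetraploids, -0.50, -0.48 and -0.52. Of 26 ergosterol genes 5 were called lower, among them ERG3 at -0.65, ERG4 at -0.58, HMG2 at -0.53 and ERG5 at -0.48, and the median was -0.20 (0.01 with total counts). Of 9 hypoxic genes HEM13, for haem synthesis, was the 1 call, at -0.81 (SE 0.13, adjusted p = 0.00153), with a list median of -0.14 (0.07 with total counts).

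Of 32 cell wall genes 15 were called lower (median -0.39), and with total counts 2 were. PST1, for a wall protein induced by wall damage, stood at 167 CPM in haploid A, 67.3 in haploid B, 149 in tetraploid A and 91.0 in tetraploid B (ratio -0.99, SE 0.15, adjusted p = 0.00067). BGL2, for a glucanase, stood at 746 and 755 CPM in haploid and tetraploid A and 372 and 474 in haploid and tetraploid B (ratio -0.84, SE 0.13, adjusted p = 0.000725). Both genes had like levels in the 2 ploidies of pair A and were lower in both libraries of pair B. TIP1, for a wall mannoprotein, and GSC2, for a glucan synthase subunit, had ratios of -0.62 and -0.60. The list's median mean level was 362 CPM, and with offsets for level 12 genes were called lower and 1 higher (median -0.27).

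Some groups bear on ploidy or the cell cycle as well as on the cultures. Of 5 flocculin genes FLO11, for the adhesin of filamentous growth, was the 1 call. It stood at 1993 CPM in haploid A and 799 in haploid B but at 69.9 and 71.6 in tetraploids A and B, so its pair ratio was -1.32 in the haploids and 0.03 in the tetraploids (-0.75 by the fit, adjusted p = 0.0417). Its ploidy ratio in the same fit was -4.16. Of 17 mating genes STE2, for the alpha-factor receptor, and AGA1, for an agglutinin subunit, were called lower, at -0.58 and -0.55, beside ploidy ratios of -2.25 and -1.59, and the median was -0.04 (0.17 with total counts).

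Of 12 genes for separation of daughter cells, 5 were called lower (median -0.45). CTS1, for chitinase, stood at 34.8 and 26.4 CPM in haploids A and B and at 307 and 190 in tetraploids A and B, so its pair ratio of -0.60 stood beside a ploidy ratio of 3.0. DSE2, for a protein of daughter cell walls, had 31 and 24 reads in the haploids and 567 and 331 in the tetraploids, with a pair ratio of -0.87, and DSE4 and EGT2 had ratios of -0.94 and -0.67. Of 25 cell cycle genes 3 were called higher, CLB5, the cyclin gene PCL1 at 0.71 and the histone gene HHT1 at 0.42 (median 0.05). Of 33 proteasome genes none was called by edgeR, limma-voom or DESeq2, and 5 were higher at an unadjusted p under 0.05 in edgeR. With total counts 7 of them were called higher, and with offsets for level 3. The most abundant, RPN2 and RPN1, had ratios of -0.18 (SE 0.12) and -0.16 (SE 0.12), with a list median of 0.11.

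**Figure D5:**
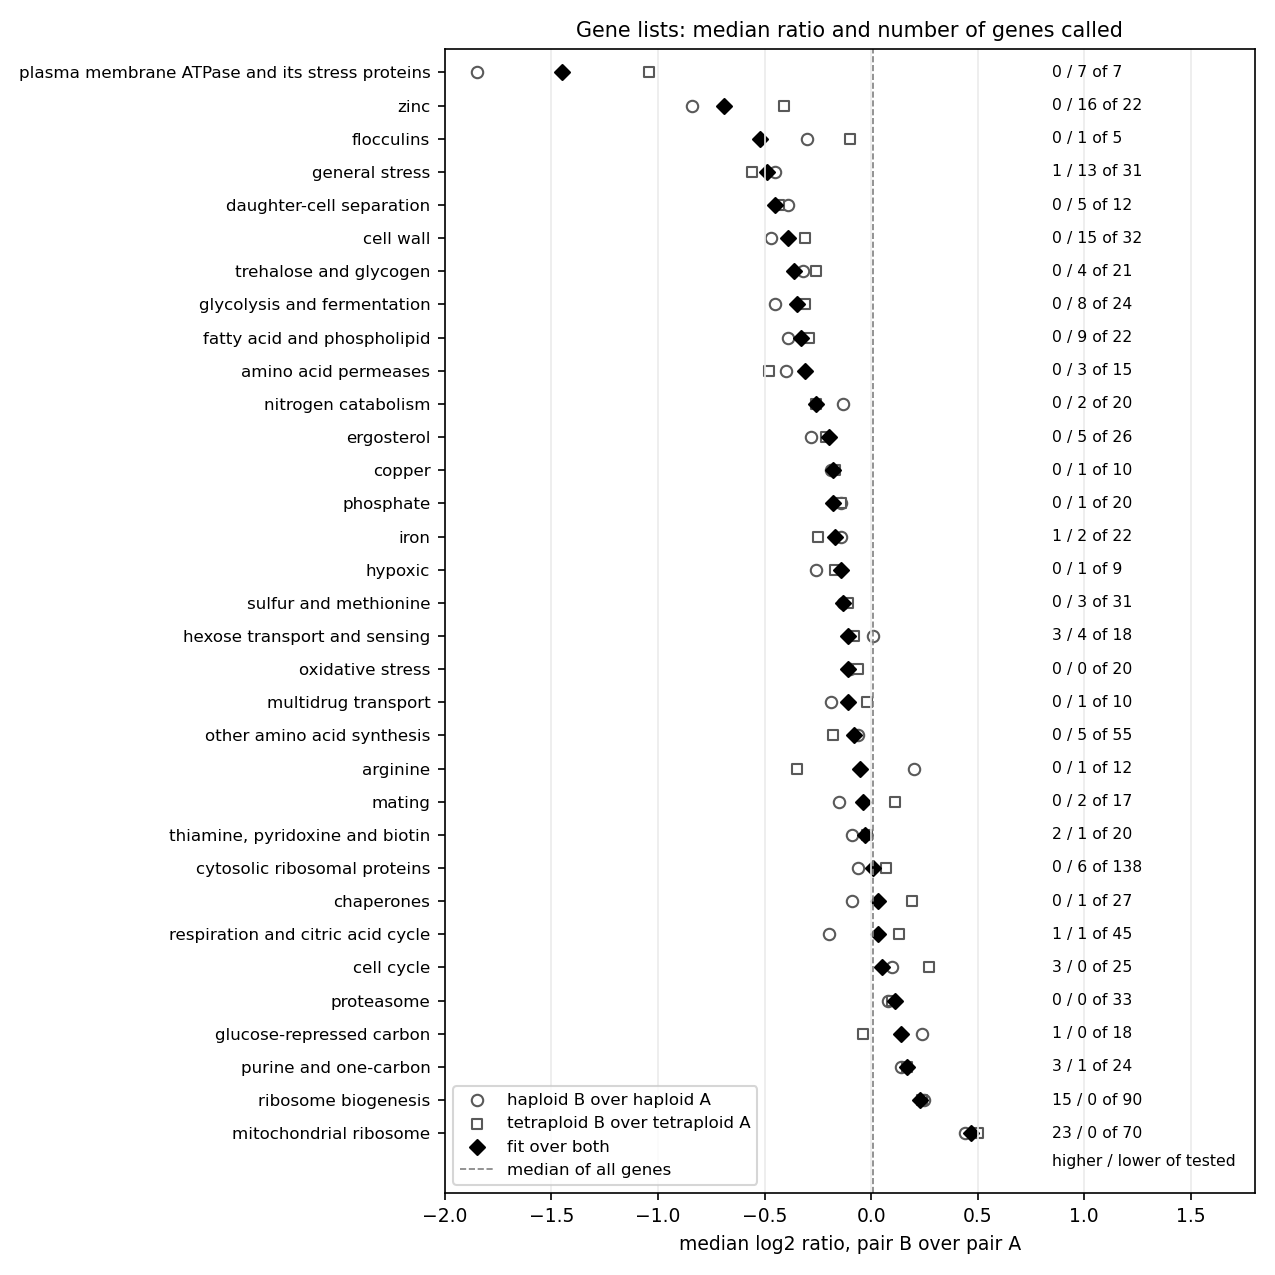
Median log2 ratio of pair B over pair A for each of the 33 gene lists, with diamonds for the fit, circles for the haploids, squares for the tetraploids, a dashed line at the median of all genes (0.01), and the number of genes called higher and lower at the right. The list of the ATPase and its partners (-1.45) and the zinc list (-0.69) lie lowest, and the mitochondrial ribosome (0.47) and ribosome biogenesis (0.23) lie highest.

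The ploidy comparison in the same fit shares all 4 libraries with the pair comparison, and its values are given beside the pair values as a description. It called 143 of the 5680 genes higher and 301 lower in tetraploids. Of the 52 genes at least 2-fold lower in pair B by the fit, 25 were also called lower in tetraploids, as were 103 of all 359 genes lower in pair B. Genes with a large pair difference and no ploidy call included ZRT1, TPO2, TPO3 and AQY2, with ploidy ratios of -0.46, -0.22, -0.45 and -0.38. Both calls were made for HSP30 and YRO2, with ploidy ratios of -1.29 and -1.38. Tetraploid B was thus the lowest library for YRO2, SPI1 and ZPS1, and haploid A the highest.

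Every call rested on 1 residual degree of freedom, with the spread borrowed across genes, and the count of calls fell to 0 higher and 7 lower when ploidy was not in the model. In that fit 223 genes were higher and 319 lower at an unadjusted p under 0.05. DESeq2 called 12 higher and 166 lower with the block.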

How the data were processed

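For the 4 cultures, the authors read poly(A) RNA on an Illumina Genome Analyzer, aligned it with Bowtie against the Σ1278b assembly, and deposited raw counts per ORF that take in both strands. Unique mapping is stated for expression, yet near-identical ORFs carry identical counts in the files, so counts of close paralogs are uncertain. The lowest listed count was 2, and ORFs not listed were taken as 0. The kit is not stated to keep strand.

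Groups and pairs come from the sample labels. Counts were compared with edgeR 4.0.16 (TMM factors, quasi-likelihood test, ploidy and pair as terms, Benjamini-Hochberg adjustment over 5680 genes), with limma 3.58.1 (voom) and DESeq2 1.42.0 as alternatives, in R 4.3.3. Within-ploidy ratios used a prior count of 0.5. The biological coefficient of variation was 0.0858, or 0.181 without the ploidy term. The standard error is the log2 ratio divided by the square root of F. Depth was 3612527 to 4133193 counts per library, and counting error leaves out variation between cultures.

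Named genes are the 12 largest changes in each direction among called genes with a standard name and one direction at both ploidies, up to 4 called members of each list (or, with no call, the most abundant members), ZPS1, SPI1, YRO2, FLO11, ACT1 and the most abundant call in each direction. Other list members and genes were named after their values were seen. The genes, lists and tests were chosen with earlier results of these data known. Alternatives were other scalings, filters and tools, no ploidy term, a minimum fold and each library left out. Names come from the R64 reference of another strain, which matched 5754 of 6348 ORFs, so no coordinates are given. A planned motif search in promoters was not run. Of 998 list entries, counting a gene once per list, 951 were tested, 35 lay under the minimum of reads and 12 were not analysed here.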

Additional observations from a re-analysis of the deposited data

Results flagged for a closer look

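The ratio of pair B to pair A had opposite signs at the 2 ploidies for 3 called genes, which was noticed because every other called gene had one sign. VEL1 had a log2 ratio of -4.56 in the haploids and 0.88 in the tetraploids, with read counts of 324 and 15 for haploids A and B and 7 and 15 for tetraploids A and B. ARO9 had 0.04 and -1.83, from 13 and 15 reads in the haploids and 68 and 21 in the tetraploids. FLO11 had -1.32 and 0.03, from 6247 and 2812 reads in the haploids and 297 and 342 in the tetraploids. With 1 library of each ploidy and pair, the difference between the ploidies was not tested.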

How the results depend on the processing

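No paired analysis was possible because the replicate letter is itself the factor compared, and ploidy takes the place of the block. The genes higher and lower in pair B (179 and 359) became 542 and 130 with total counts, 292 and 479 with TMM factors computed without ribosomal DNA ORFs, 15 and 125 with no filter on low counts, 47 and 159 with at least 100 reads in all 4 libraries (2384 genes tested), 12 and 166 with DESeq2, 0 and 7 with no ploidy block, and 2 and 34 when tested against a fold change of 1.5. DESeq2 size factors, upper-quartile factors, 15 reads in all 4 libraries, limma-voom and offsets for level, an alternative chosen after seeing the data, left both counts within 1.5 times. Leaving out each library in turn, without the ploidy block, gave 0 to 48 genes higher and 0 to 165 lower (1 and 22 without haploid A). Both counts were 0 without haploid B and without tetraploid B, where 145 and 66 genes were higher and 223 and 104 lower at an unadjusted p under 0.05. The 36 genes 2-fold apart at both ploidies became 153 with no filter, 8 with 100 reads in all libraries, 266 at 1.5-fold and 11 at 4-fold. In 9 other fits with the ploidy block (edgeR under the other scalings and offsets, with no filter and with 15 reads in all 4 libraries, DESeq2 and limma-voom), 8 higher genes, among them HXT2 and NCE103, and 96 lower genes were called throughout. These totals count ORFs and hold repeated measurements. The 8 include the dubious ORFs YGR069W and YNL143C, whose counts are nearly equal. The 96 include the ribosomal DNA ORFs YLR154C-H, YLR156C-A, YLR157C-C and YLR159C-A, whose counts are identical. With 1 library left out the VEL1 log2 fold change ran from -4.57 to 0.88 and the FLO11 log2 fold change from -1.33 to 0.03, the upper values without a haploid, and the ARO9 log2 fold change from -1.84 to 0.03, the upper value without a tetraploid. With total counts, the medians of 13 of the 33 lists changed sign, all between -0.20 and -0.03 with TMM factors. The median of all genes rose from 0.01 to 0.22 with the same change of scale, so a changed sign is not a change relative to all genes. The cause of these shifts was not tested.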

Other observations

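Some genes on none of the lists, chosen after their values were seen, also stood apart. The ceramidase genes YDC1 and YPC1 had pair ratios of -1.11 and -0.96, the phospholipase B genes PLB1, PLB2 and PLB3 of -0.84, -0.65 and -0.91, and URA8, for CTP synthase, of -1.20 (SE 0.13, adjusted p = 4.32e-05). URA8 stood at 103 and 115 CPM in haploid and tetraploid A and at 44.0 and 50.6 in haploid and tetraploid B. CIT2, for peroxisomal citrate synthase, had a ratio of -1.10 (adjusted p = 0.000117) and CMK2, for a calmodulin-dependent kinase, of -1.26 (adjusted p = 4.86e-05). COX17, for a copper chaperone of cytochrome oxidase, had a ratio of 0.88 (adjusted p = 0.0048). PIC2, for a mitochondrial carrier, had a ratio of -2.05 and its R64 neighbour YER053C-A of -2.65.

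In the R64 order, 16 adjacent pairs of ORFs were both called lower and 4 both called higher, each by 0.5 or more on the log2 scale. Among them were AQY2 with YLL053C, ZPS1 with HPF1 and TPO3 with TDA6. HXT6 with HXT7, which are 1 measurement, is also counted. Of all genes, 6.32% were called lower and 3.15% higher. How many such pairs calls without regard to position would give was not tested, so the counts do not show clustering. Whether AQY2 and YLL053C are separate genes in Σ1278b was not tested either. The dubious ORFs YGR069W and YNL143C had nearly equal counts in every library, 639 and 658 reads in haploid A and 1261 and 1301 in haploid B, and near equal ratios of 0.75 and 0.74, and whether they share reads was not tested.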
